A study of Rattus norvegicus with 23 samples.

Results

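Kidneys of rats with partial nephrectomy and an arteriovenous fistula (AVF+NX) were compared with kidneys of rats with the nephrectomy alone (NX). These are all the kidney libraries labelled AVF+NX or NX, 8 of the 23 libraries of the study, with 4 in each group. All rats were Sprague-Dawley, 13 weeks old, and their tissue was taken 4 weeks after the operation. The nephrectomy, which both groups share, removed 5/6 of the renal mass, and the AVF+NX rats additionally had the jugular vein joined end-to-side to the carotid artery, so that blood passes from artery to vein as in a dialysis access. A further 4 kidney libraries from sham-operated rats (Sham) were used for the level without either procedure. There was no group with a fistula and whole kidneys among the samples, and the labels state neither the part of the kidney taken nor which heart and kidney came from 1 rat.

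Partial nephrectomy is a standard way to produce chronic kidney disease in rats: the remaining nephrons enlarge, and inflammation, scarring and tubule loss follow. Leukocytes that enter the interstitium include antigen-presenting macrophages and dendritic cells, T cells, and B cells that can mature into antibody-secreting plasma cells. The nephron is divided into segments (proximal tubule, thick ascending limb, distal convoluted tubule, collecting duct), each marked by its own transporters. Those transcripts are listed here by segment, with values that are relative within each library. In whole tissue, fewer cells of a type and less RNA per cell cannot be told apart, and neither can more cells and more RNA per cell.

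The values are read counts per gene from poly(A)-selected RNA. They are given here as CPM, a gene's counts relative to its library's total after that total was adjusted by TMM scaling. The 8 libraries held 9360065 to 18782085 counts. NX library 4 was both the deepest and the one with the lowest share of mitochondrial counts, at 4.15%, against 9.37% to 9.63% in the other NX libraries and 5.71% to 9.03% after AVF+NX. The mean mitochondrial share differed by -0.626 percentage points between the groups (AVF+NX minus NX; exact two-sided permutation test, p = 0.686, n = 4 each, where the smallest possible p is 0.0286). On the first principal component of the 1000 most variable genes, which held 70.7% of the variance, AVF+NX libraries lay between -42.0 and -21.7, NX libraries 1, 2 and 4 between -6.02 and 2.09, and NX library 3 at 23.4, next to the Sham libraries at 24.9 to 33.4. NX library 3 thus stood apart from its group on the side of Sham. The labels and files do not settle whether this library represents its group, and every NX mean and fold over NX includes it. Markers of every tubule segment and of podocytes were present in each kidney library, while the heart muscle gene Myh6 and the liver gene Alb stayed at or below 2.99 CPM. Adipose markers were uneven. Their summed level was 82.6 to 115 CPM after AVF+NX, 172, 50, 26.2 and 37.4 CPM in NX libraries 1 to 4, and 15.7 to 44.7 CPM in Sham. The part of adipose tissue in the results was not tested.

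Urothelial markers, which belong to the lining of the renal pelvis and ureter, were uneven within the AVF+NX group. Upk1b, a uroplakin, was at 20.9, 3.10, 1.11 and 13.9 CPM in AVF+NX libraries 1 to 4, against 2.89, 0.860, 0 and 2.72 CPM in NX. Krt5, a basal keratin, was at 11.4, 1.03, 0.404 and 26.8 CPM, against 1.24, 0.107, 0.113 and 1.38. AVF+NX libraries 1 and 4 were therefore the high ones for both genes. The 12 urothelial genes tested had a median log2 fold change of 2.02, which was 0.17 without those 2 libraries. None of the 12 was called, and 6 had an unadjusted p below 0.05. DESeq2 called none of them either. In edgeR 2 were called without AVF+NX library 3 and 1 without NX library 4.

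Adding the fistula to the nephrectomy was followed by higher expression of a large number of genes and modestly lower expression of a smaller number. Of 14322 genes tested with edgeR's quasi-likelihood test, 698 were higher (4.87%) and 172 lower (1.2%), together 6.07%, at a Benjamini-Hochberg adjusted p below 0.05. At least 2-fold changes were almost all rises: 410 called genes were at least 2-fold higher (2.86% of the genes tested) and 1 was at least 2-fold lower (0.00698%). That gene, looked up after the count was seen, was Hmx3, a homeobox factor at a mean of 0.772 CPM against 2.08 (log2 -1.39, SE 0.36, adjusted p = 0.0399). All 4 AVF+NX libraries lay above all 4 NX libraries for 1073 genes (7.49%) and below them for 617 genes (4.31%). The authors' deposited table for this comparison has 880 genes higher and 243 lower, and 833 genes are called both there and here. The median log2 fold change of all genes tested was -0.01, with 6978 genes positive and 7344 negative. At an unadjusted p below 0.05, 13.8% of all genes were higher and 9.25% lower. These shares over all genes stand beside every count of list members given below. Single libraries moved the number called: 870 genes in all became 324, 1585 and 449 when AVF+NX libraries 1, 3 and 4 were left out in turn, and 576 and 384 for NX libraries 2 and 3. Without both AVF+NX libraries 1 and 4, a setting added after their urothelial markers were seen, 83 genes were called, all higher. With the 2 libraries left out, all 81 called genes whose values are given here, Hmx3 not counted, kept their direction, and 26 kept their call.

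**Figure D1:**
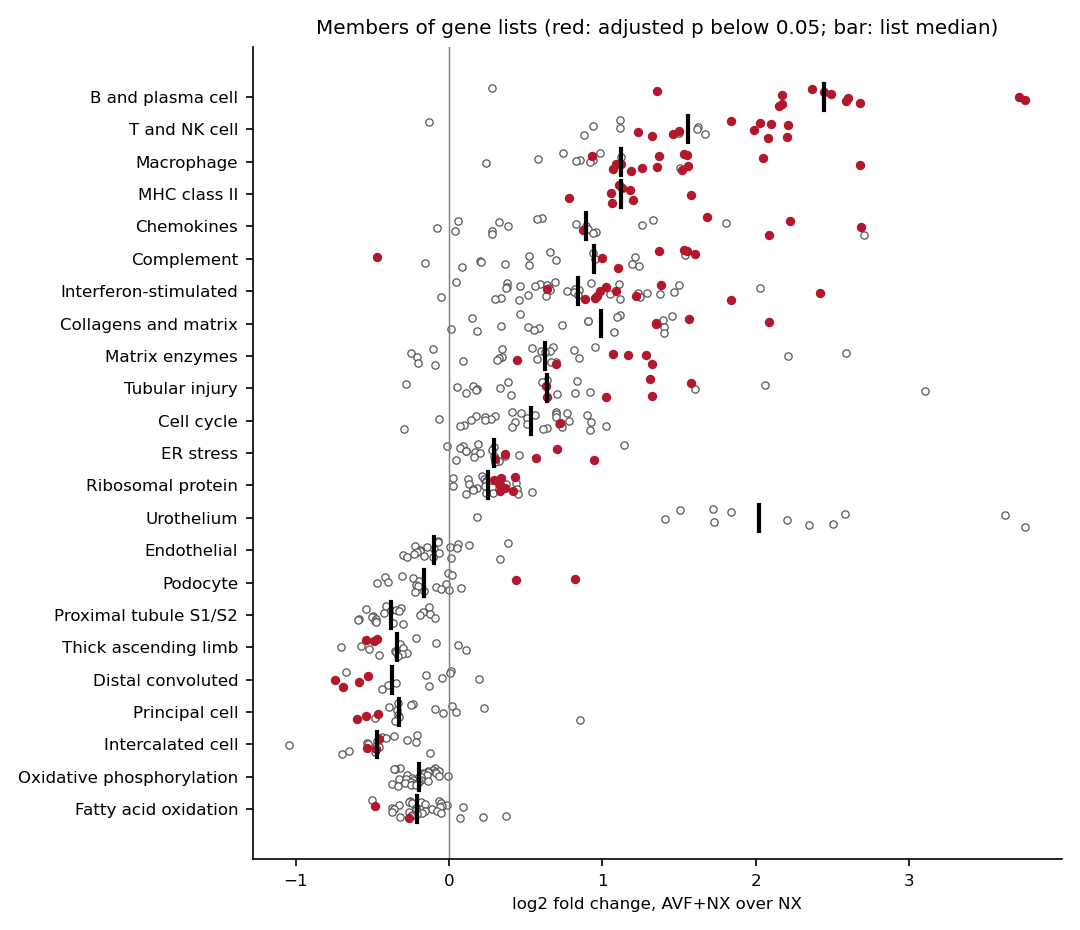
Each point is 1 gene of a list, placed by its log2 fold change in kidney (AVF+NX over NX, from the fit of 12 libraries), with red points for an adjusted p below 0.05 and a black bar at the list's median. The B and plasma cell list has its median at 2.44 and the MHC class II list at 1.12. The medians of the tubule lists drawn here lie to the left of 0, down to -0.47 for intercalated cells. The lists for the late proximal tubule (median -0.09) and for the loop and inner medulla (median 0.24) are not drawn.

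B cell and plasma cell genes had the highest median of the lists tested. Of the 13 members tested, 12 were called higher, against 4.87% of all genes, and their median log2 fold change was 2.44. The immunoglobulin heavy chain gene Igh-6 (chr6:138092131-138093643 in the files' coordinates, whose build is not given in the sources used here) was at 468, 1119, 735 and 2281 CPM in AVF+NX libraries 1 to 4. In NX libraries it was at 94.1, 114, 18.2 and 123 CPM, and in Sham at 1.11 ± 0.762 (SD, n = 4). The groups did not overlap, and every AVF+NX library was above the highest NX library by more than 3-fold. The fitted fold change between the groups was log2 3.72 (SE 0.61, adjusted p = 0.00904).

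Jchain, which links immunoglobulin units into polymers, gave 271, 206, 108 and 264 CPM after AVF+NX and 46.5, 45.2, 5.76 and 41.6 after NX (log2 2.60, SE 0.49, adjusted p = 0.0131). NX library 3 was the low one of its group for both genes. Mzb1, a chaperone of plasma cells, rose with log2 2.59 and the lymphoid coactivator Pou2af1 with log2 2.68 (adjusted p = 0.00957 and 0.00507). Genes of B cells before the plasma cell stage rose too. Cr2, the complement receptor of B cells and follicular dendritic cells, was at 5.57 to 7.57 CPM against 0.565 to 1.63 (log2 2.49, SE 0.36, adjusted p = 0.00507), and Cd79b, a signalling chain of the B cell receptor, rose 5.44-fold (adjusted p = 0.0130). Ms4a1, which encodes CD20, was at 3.73 to 10.1 CPM after AVF+NX, while NX libraries 1 and 4 gave 0.412 and 0.989 CPM and the other NX libraries 0 (log2 3.76, adjusted p = 0.0187, a fitted value that depends on the prior count). In addition, 29 called genes that carry only a placeholder name had a fitted fold of at least 8. Of these, 11 lie on chromosome 6 between 139783839 and 143195445, the chromosome that holds Igh-6, and 9 lie on chromosome 3.

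Over the fits that leave out 1 library, 11 to 13 members of the B and plasma cell list were called and the median ran from 2.24 to 2.75. Without AVF+NX libraries 1 and 4 together, 3 members were called, with an unchanged median of 2.44.

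T cell and natural killer cell genes rose as well, with 11 of 20 members called higher (4.87% of all genes were) and a median log2 fold change of 1.56. Il2rb, a receptor chain for interleukin-2 and interleukin-15, had the second smallest p of all genes. It was at 23.2, 13.2, 22.7 and 20.4 CPM after AVF+NX, at 5.36, 5.27, 3.62 and 5.63 after NX, and at 4.86 ± 0.936 (SD, n = 4) in Sham (log2 1.99, SE 0.21, adjusted p = 0.00184). The NX libraries thus lay at the level of Sham, and all AVF+NX libraries were above both. Cd3g, a chain of the T cell receptor complex, was at 15, 12.7, 14.3 and 8.66 CPM against 3.30, 3.33, 0.904 and 3.21 (log2 2.21, SE 0.33, adjusted p = 0.00507). Cd3e, Cd247 and Zap70, which also belong to T cell receptor signalling, rose 4.29-fold, 3.58-fold and 4.22-fold (adjusted p = 0.0102, 0.00757 and 0.0121). The inhibitory receptors Ctla4 and Lag3 of activated T cells rose 5.28-fold and 7.55-fold (adjusted p = 0.0083 and 0.00906).

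Lymphocyte transcription factors were among the genes with the smallest p. Ikzf3, a factor of B and T cells, was at 27.5, 22.1, 22.6 and 16.9 CPM against 4.85, 3.87, 2.15 and 6.57 (log2 2.31, SE 0.26, adjusted p = 0.00231). Irf4, needed for plasma cell formation, rose 4.43-fold and Tcf7, a factor of naive and memory T cells, 3.75-fold (adjusted p = 0.00287 and 0.00345). The lymphocyte GTPase Gimap7, the shared cytokine receptor chain Il2rg and the adaptor Ptprcap rose 4.22-fold, 2.70-fold and 4.61-fold (adjusted p = 0.00231, 0.00296 and 0.00306). Cxcr3, the receptor for interferon-induced chemokines on T cells, rose 3.30-fold (adjusted p = 0.00904). Without AVF+NX library 1, 7 members of the T and NK cell list were called. Without AVF+NX libraries 1 and 4 together 4 were called, with a median of 1.53.

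**Figure D2:**
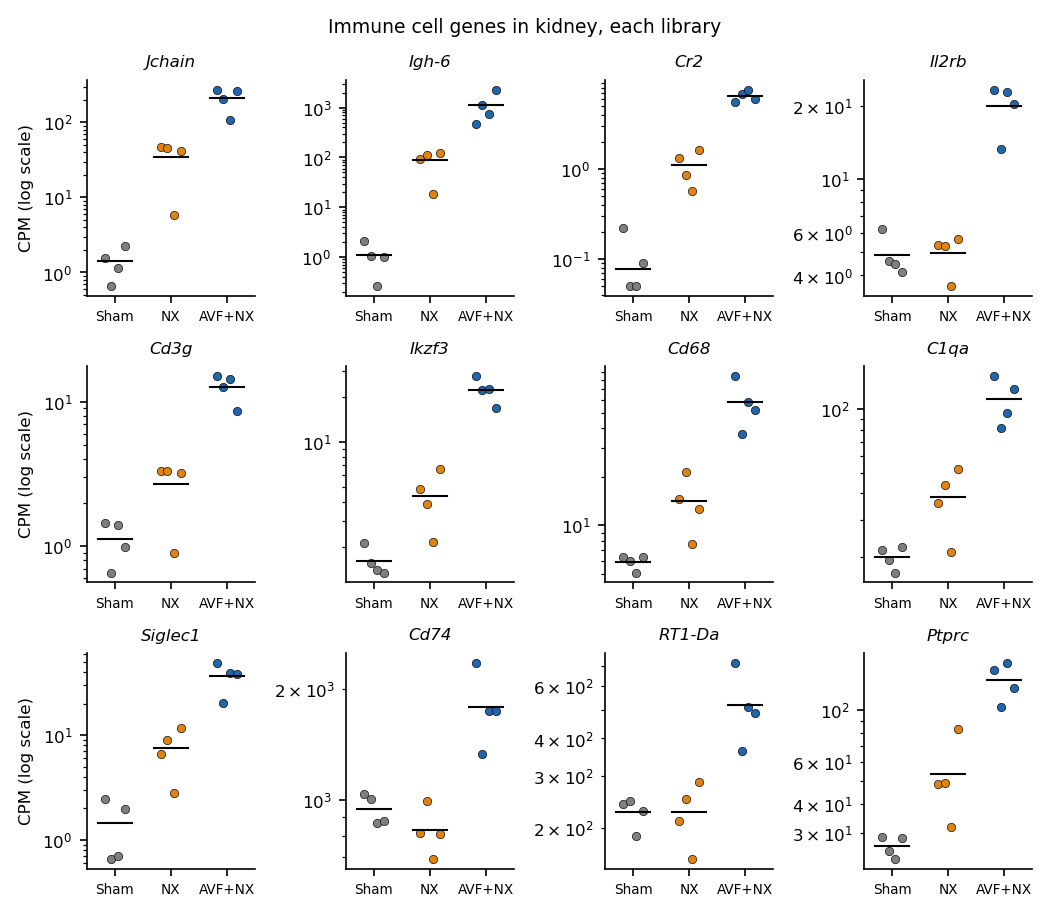
CPM of 12 immune genes in each kidney library (log axis; points are libraries, bars are group means, and libraries at 0 are drawn at 0.05). All 4 AVF+NX points lie above all 4 NX points in each panel, and for Il2rb, Cd74 and RT1-Da the NX and Sham points overlap.

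Of 24 macrophage genes, 14 were called higher (4.87% of all genes were) and none lower, and all 24 had a positive fold change with a median of 1.12. With only the AVF+NX and NX libraries in the fit 5 were called. The lysosomal marker Cd68 was at 84.3, 37.1, 58.4 and 52.3 CPM after AVF+NX and at 14.6, 21.5, 7.68 and 12.6 after NX (log2 2.05, SE 0.28, adjusted p = 0.00484). AVF+NX library 1 was the highest and library 2 the lowest of the group, yet the groups stayed apart. The complement subunits C1qa and C1qb, made by tissue macrophages, rose 2.89-fold and 2.93-fold (adjusted p = 0.00669 and 0.00906). Siglec1, a sialic acid receptor of tissue macrophages, rose 4.77-fold, the fungal-glucan receptor Clec7a 2.47-fold and the endotoxin co-receptor Cd14 1.91-fold (adjusted p = 0.0103, 0.00247 and 0.00507).

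Apoe, an apolipoprotein made by macrophages and other cells, was at 2701, 1453, 1966 and 1245 CPM against 712, 801, 595 and 469 (log2 1.52, SE 0.24, adjusted p = 0.0062). Pla2g7, a secreted phospholipase, and the fatty acid carrier Fabp5 rose 3.25-fold and 2.04-fold (adjusted p = 0.00709 and 0.0147). Gpnmb, a glycoprotein of lipid-laden macrophages, was at 387, 129, 382 and 328 CPM against 64.3, 98.1, 12 and 18.8 (log2 2.68, SE 0.58, adjusted p = 0.0228). Its call was lost without AVF+NX library 1 or NX library 3, with an adjusted p of up to 0.0724. The colony-stimulating factor receptor Csf1r, a defining marker, was at 251, 156, 129 and 196 CPM against 92.0, 88.4, 63.7 and 167, which overlap (log2 0.83, SE 0.27, adjusted p = 0.0914). The number of macrophage genes called fell to 6 when AVF+NX library 1 was left out, to 9 for AVF+NX library 4, to 9 for NX library 1 and to 8 for NX library 3. It was 1 without AVF+NX libraries 1 and 4 together, where the median was 0.91. Ptprc, the pan-leukocyte antigen CD45, rose 2.49-fold, from 31.9 to 83.3 CPM in NX libraries to 103 to 159 CPM (adjusted p = 0.00955).

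MHC class II genes, which display peptides to helper T cells, were all called higher, 8 of 8 tested, with log2 fold changes around a median of 1.12. Cd74, the invariant chain of the class II complex, was at 2349, 1333, 1736 and 1736 CPM after AVF+NX against 814, 995, 691 and 809 after NX (log2 1.11, SE 0.16, adjusted p = 0.00507). In Sham it was at 945 ± 86.4 CPM (SD, n = 4), so the NX libraries lay at or around the level of Sham and the AVF+NX libraries above it. RT1-Da, a class II alpha chain, was at 719, 363, 509 and 488 CPM against 211, 250, 157 and 285 (log2 1.20, SE 0.21, adjusted p = 0.00904). RT1-Ba and RT1-Db1 rose 2.27-fold and 2.09-fold, and Ciita, the transactivator of class II genes, 2.19-fold (adjusted p = 0.00889, 0.0143 and 0.0112). B2m, the light chain of class I molecules, rose 1.72-fold, from 415 to 654 CPM in NX libraries to 866 to 1035 CPM (adjusted p = 0.00828). Over the fits without 1 library, 7 or 8 class II genes were called, and without AVF+NX libraries 1 and 4 together 3 were, with a median of 0.93.

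The promoters of these antigen presentation genes are shown because members of the list moved together. Each is the 200 bases before the annotated start, from RefSeq (build GRCr8), 5′ to 3′ on the gene's strand. Capitals mark a CCAAT box (CCAAT or, on the other strand, ATTGG) in the first pair, which is part of the known class II promoter module, and an interferon-stimulated response element core (GAAA, any 2 bases, GAAA, or TTTC, any 2 bases, TTTC) in the second pair.
RT1-Ba, chr20:4576857-4577056, plus strand: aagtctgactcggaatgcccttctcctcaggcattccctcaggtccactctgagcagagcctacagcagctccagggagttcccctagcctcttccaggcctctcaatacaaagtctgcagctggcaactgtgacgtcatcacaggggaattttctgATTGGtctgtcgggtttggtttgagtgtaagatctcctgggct
RT1-Da, chr20:4515215-4515414, plus strand: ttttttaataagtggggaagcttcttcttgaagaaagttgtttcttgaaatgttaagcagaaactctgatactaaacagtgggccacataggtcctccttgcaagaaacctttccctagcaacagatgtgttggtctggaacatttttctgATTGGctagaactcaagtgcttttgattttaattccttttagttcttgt
B2m, chr3:129549130-129549329, plus strand: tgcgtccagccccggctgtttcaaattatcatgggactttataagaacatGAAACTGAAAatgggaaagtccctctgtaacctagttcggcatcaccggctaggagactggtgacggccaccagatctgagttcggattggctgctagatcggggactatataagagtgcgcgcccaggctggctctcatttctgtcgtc
Tap1, chr20:4668544-4668743, minus strand: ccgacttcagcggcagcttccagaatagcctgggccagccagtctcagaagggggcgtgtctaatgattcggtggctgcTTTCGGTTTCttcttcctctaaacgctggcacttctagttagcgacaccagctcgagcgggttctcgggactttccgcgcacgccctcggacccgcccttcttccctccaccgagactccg
A CCAAT box was found in this window of all 8 class II genes with a promoter in the table, and in 31.15% of the 27457 genes of the table. The response element core was found in 22 of 35 genes of the interferon-stimulated list (62.9%), in 2.92% of the table, and in 0 of the 8 class II genes. These matches describe the letters of the window and are not evidence of binding.

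Interferon-stimulated genes, induced in most cell types by interferons, were mostly positive: 43 of 44 had a positive fold change, 32 had an unadjusted p below 0.05 (13.8% of all genes were higher at that level) and 11 were called higher, with a median of 0.84. Psmb9, an immunoproteasome subunit, was at 37.4, 23.6, 30.5 and 26.3 CPM against 14.0, 18.5, 9.04 and 18.3 (log2 0.97, SE 0.21, adjusted p = 0.0190). The peptide transporter Tap1 rose 1.85-fold (adjusted p = 0.0315) and the immunity-related GTPase Ifi47 2.04-fold (adjusted p = 0.0256). The calls of Psmb9, Tap1 and Ifi47 were lost without AVF+NX library 1, with an adjusted p of up to 0.0611, 0.101 and 0.0854 over the fits without 1 library, and those of Tap1 and Ifi47 also without NX library 1. Tap1 lost its call without AVF+NX library 4 or NX library 2 as well. The list's count leaned on AVF+NX library 1, whose summed level over the list was 1822 CPM against 1034 to 1198 in the other 3: without it 0 of the 44 genes were called, and the median was 0.50. The count was 6 without AVF+NX library 2, 22 without AVF+NX library 3, 3 without AVF+NX library 4, 3, 4 and 4 without NX libraries 1 to 3, and 6 to 7 without 1 Sham library. DESeq2 called 22.

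Chemokines and phagocyte effectors followed. Of 23 chemokine genes, 5 were called higher (Cxcl9, Cxcl10, Ccl9, Ccl19 and Ccl22), with a median of 0.89. Cxcl9, an interferon-induced attractant of T cells, was at 9.25, 21.4, 23.4 and 15.2 CPM against 3.09, 5.70, 1.47 and 5.63 (log2 2.09, SE 0.38, adjusted p = 0.0102). Here AVF+NX library 1 was the lowest of its group. With only the AVF+NX and NX libraries in the fit, 1 chemokine gene was called. The chemokine count was 2 without AVF+NX library 1, 10 without AVF+NX library 3, 1 without AVF+NX library 4, 2 without NX library 2 or NX library 3 and 3 without Sham library 4.

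Ncf1 and Rac2, parts of the phagocyte NADPH oxidase, rose 3.28-fold and 2.96-fold (adjusted p = 0.00718 and 0.0062), with Ncf4 and Cybb the 4 called among 7 oxidase genes. Of 22 complement genes, 6 were higher and 1, C5, was lower, with a median of 0.95. Serping1, the inhibitor of the first complement component, was at 298, 229, 255 and 287 CPM against 139, 173, 94.5 and 92.9 (log2 1.10, SE 0.19, adjusted p = 0.00943). The complement count was 4 without AVF+NX library 1 and 12 without AVF+NX library 3.

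**Figure D3:**
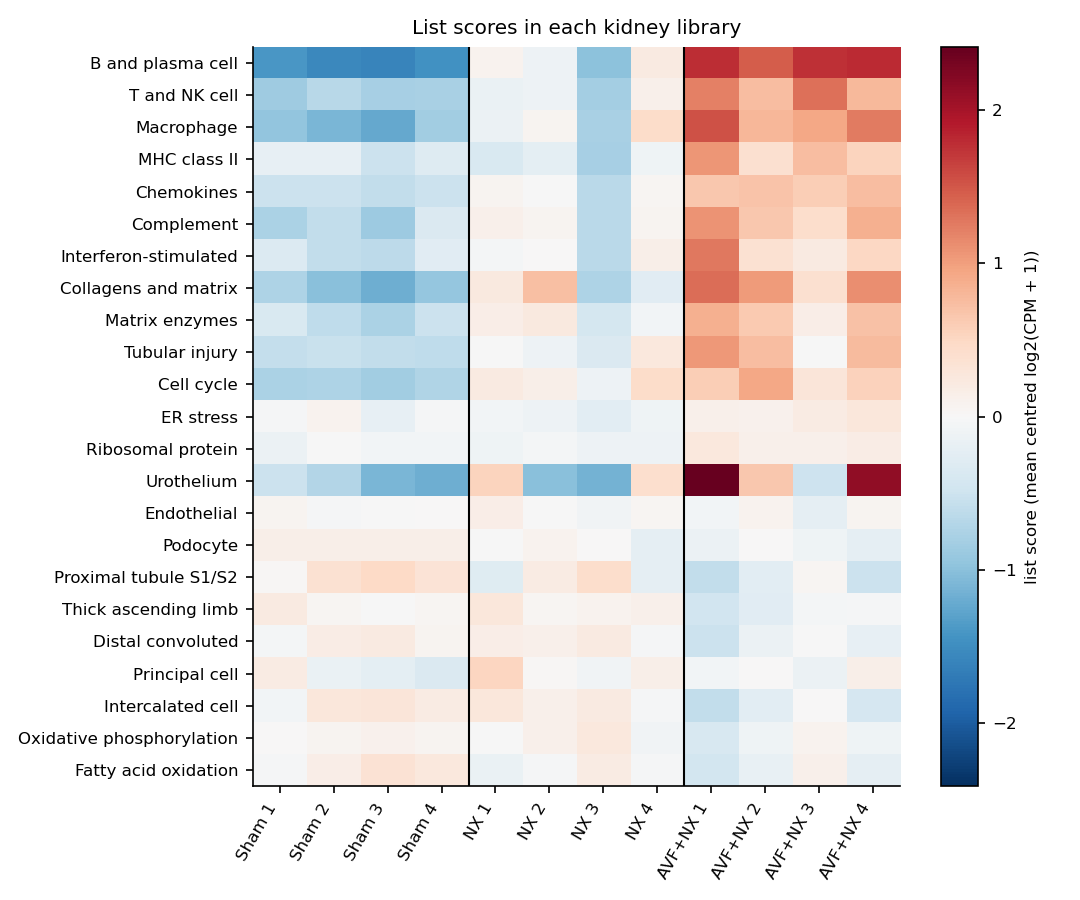
Scores of 23 gene lists (rows) in the 12 kidney libraries (columns). A score is the mean over the list's genes of log2(CPM + 1), minus each gene's mean over the 12 libraries, with red above and blue below that mean. NX library 3 is closer to Sham than the other NX libraries are in most immune rows, and AVF+NX libraries 1 and 4 carry the urothelium row.

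Matrix genes were higher with more scatter between libraries. All 22 collagen and matrix genes had a positive fold change, with a median of 0.99. The 4 called were Col1a1, Col5a3, Col6a1 and Col6a2. Col1a1, the main chain of type I collagen, was at 2808, 2119, 1244 and 2096 CPM after AVF+NX and at 660, 1260, 304 and 567 after NX, with AVF+NX library 3 just below NX library 2 (log2 1.57, SE 0.36, adjusted p = 0.0292). Its call was lost without AVF+NX libraries 1, 2 or 4 or NX libraries 1 or 4, with an adjusted p of up to 0.0929. Col3a1, of type III collagen, and fibronectin, Fn1, did not pass (log2 1.39 and 1.08, adjusted p = 0.0642 and 0.0887). The list's count was 0 without AVF+NX library 1 or 4, 1 without AVF+NX library 2, 14 without AVF+NX library 3, 1, 9, 1 and 2 without NX libraries 1 to 4, and 12 in DESeq2. With only the AVF+NX and NX libraries in the fit, 0 of the 22 were called. The list's median was 0.63 without AVF+NX libraries 1 and 4 together.

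Tgfbi, Postn, Tnn, Sfrp4 and Timp1, which encode secreted matrix proteins, held their calls in every fit without 1 library. Tgfbi, an adhesion protein induced by TGF-beta, was at 73.8, 65.4, 58.0 and 61.4 CPM against 25.8, 32.3, 26.8 and 37.2 (log2 1.08, SE 0.12, adjusted p = 0.00231), and at 36.2 ± 3.92 (SD, n = 4) in Sham. It thus was not higher in NX than in Sham, while all AVF+NX libraries were above both. Postn, periostin, a protein of scarring tissue, was at 178, 70.2, 68.4 and 57.4 CPM against 13.0, 15.4, 2.03 and 2.62 (log2 3.55, SE 0.62, adjusted p = 0.00993). Tnn, tenascin-N, and the Wnt-binding Sfrp4 rose 12.5-fold and 12.6-fold from NX levels of 0.346 to 3.33 CPM (adjusted p = 0.0052 and 0.00709). Timp1, an inhibitor of matrix proteases, rose 2.51-fold (adjusted p = 0.0129), and was not called with only the AVF+NX and NX libraries (adjusted p = 0.0541). It was 1 of 6 called among 29 matrix enzymes and inhibitors, a count that was 1 without AVF+NX library 1, 12 without AVF+NX library 3 and 2 without AVF+NX library 4. Leaving out NX library 1 gave 3, and NX library 3 or 4 gave 2. With only the AVF+NX and NX libraries in the fit the count was 0.

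Markers of tubular injury varied between the AVF+NX libraries. Havcr1, the kidney injury molecule KIM-1 of damaged proximal tubules, was at 45.6, 5.07, 4.24 and 12.7 CPM against 4.23, 2.47, 1.81 and 7.07 after NX (log2 2.06, SE 0.69, adjusted p = 0.1). AVF+NX library 1 stood out, and libraries 2 and 3 lay within the NX range. Lcn2, lipocalin-2 of injured distal tubules and of neutrophils, was at 45.2, 74.0, 4.44 and 24.6 CPM against 0.722, 0.215, 4.29 and 10.3 (log2 3.11, SE 0.94, adjusted p = 0.0774). Osteopontin, Spp1, gave 594 to 1746 CPM against 507 to 1564 (log2 0.40, SE 0.37, adjusted p = 0.561). None of the 3 classical injury markers passed, and their ranges overlapped between the groups.

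Of the 24 injury genes, 6 were nevertheless called higher, with a median of 0.64. Vim, vimentin, which marks dedifferentiated tubule cells as well as mesenchymal cells and leukocytes, was at 446, 294, 261 and 356 CPM against 182, 190, 101 and 194 (log2 1.02, SE 0.20, adjusted p = 0.0131). Fgg, the fibrinogen gamma chain, rose 2.99-fold, from 0.753 to 1.73 CPM to 3.00 to 3.97 CPM (adjusted p = 0.0118). The summed level of the 12 urothelial genes, 499, 271, 174 and 451 CPM in AVF+NX libraries 1 to 4, was highest in the libraries in which Havcr1 was also highest, and its part in the injury values was not tested. The count of injury genes was 3 without AVF+NX library 1 or 4 and 14 without AVF+NX library 3. It was 0 without libraries 1 and 4 together, and 1 with only the AVF+NX and NX libraries.

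Of 32 cell cycle genes, 30 had a positive fold change, against 6978 of all 14322 genes, with a median of 0.53. At an unadjusted p below 0.05, 13 were higher (13.8% of all genes were). In edgeR 1 was called, where 4.87% of all genes were called higher, so the count of calls does not set the list apart. DESeq2 called 7. Mki67, a marker of dividing cells, was at 45.6, 49.2, 28.4 and 34.6 CPM against 28.4, 24.3, 16.4 and 26.2 (log2 0.72, SE 0.18, adjusted p = 0.0375), and was the 1 gene called. Its call was lost in 9 of the 12 fits without 1 library, with an adjusted p of up to 0.115. The list's count was 8 without AVF+NX library 3, 5 without NX library 4 and 0 without AVF+NX libraries 1, 2 or 4, NX libraries 2 or 3 or any Sham library. With only the AVF+NX and NX libraries in the fit, the count was 0. Against Sham, 29 of the 32 were higher after AVF+NX (15.9% of all genes) and 17 after NX (0.859%). The groups share the Sham libraries.

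**Figure D4:**
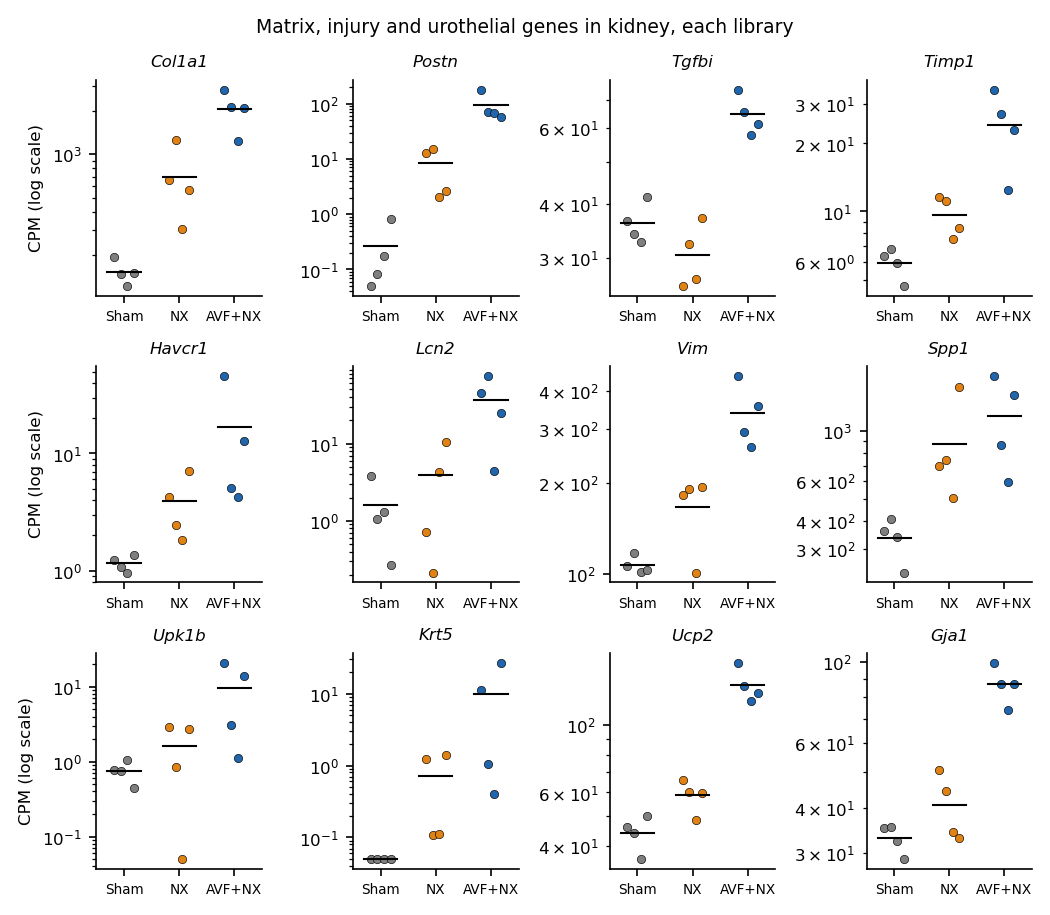
CPM of matrix, injury, urothelial and other genes in each kidney library (log axis; points are libraries, bars are group means, values under 0.05 drawn at 0.05). The AVF+NX points of Tgfbi, Ucp2 and Gja1 lie close together above NX, while those of Havcr1, Lcn2, Upk1b and Krt5 spread widely.

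Some of the smallest p-values belonged to genes outside the immune lists. Ucp2, a carrier of the inner mitochondrial membrane that is abundant in leukocytes, had the smallest p of all, with 160, 134, 120 and 127 CPM against 66.0, 60.3, 48.7 and 59.6 (log2 1.21, SE 0.12, adjusted p = 0.00184). Gja1, the gap junction protein of the connexin family, was at 99.4, 86.9, 73.8 and 87.1 CPM against 50.8, 44.4, 34.4 and 33.0 (log2 1.10, SE 0.14, adjusted p = 0.00296). Both were tight within each group and did not overlap. Wipf1, a regulator of actin, and Rarres1, a retinoic acid-responsive gene, rose 1.96-fold and 2.69-fold (adjusted p = 0.00231 and 0.00296). Hk2, a hexokinase that starts glycolysis, rose 1.80-fold (adjusted p = 0.00902). The 18 glycolysis genes as a list did not rise: 13 were negative, with a median of -0.15, 2 called higher and 1 lower.

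Small rises were seen in genes of protein production. All 30 ribosomal protein genes had a positive fold change, with a median of 0.25, and 7 were called higher (4.87% of all genes were). Of 23 genes of the endoplasmic reticulum stress response, 22 were positive and 5 called higher (Pdia4, Creld2, Sdf2l1, Pdia6 and Hsp90b1), with a median of 0.29. Pdia4, a protein disulfide isomerase, and Creld2, secreted on reticulum stress, rose 1.48-fold and 1.63-fold (adjusted p = 0.0062 and 0.00844). Genes of B and plasma cells, which are rich in these proteins, rose in the same libraries, and their part in these values was not tested. The ribosomal count was 1 without AVF+NX library 1 or NX library 3, 2 without AVF+NX library 2 or 4, and 3 to 4 without 1 Sham library. The reticulum count was 2 without AVF+NX library 1 or 4 or NX library 3. It was 3 without AVF+NX library 2, NX library 2 or any 1 Sham library. With only the AVF+NX and NX libraries the counts were 0 for the ribosomal list and 3 for the reticulum list.

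Transcripts of the distal nephron were lower after AVF+NX, by smaller amounts. Of 14 genes of the distal convoluted and connecting tubule, 4 were called lower (1.2% of all genes were) and none higher, with a median log2 fold change of -0.37. Slc12a3, the thiazide-sensitive sodium chloride cotransporter, was at 441, 539, 712 and 492 CPM after AVF+NX and at 971, 946, 1011 and 725 after NX (log2 -0.74, SE 0.15, adjusted p = 0.0165). The groups did not overlap, though AVF+NX library 3 and NX library 4 came close. Its call was lost without AVF+NX library 1 or 4, with an adjusted p of up to 0.0507. Trpv5, the apical calcium channel of this segment, was at 18.9, 19.9, 22.2 and 19.3 CPM against 33.0, 32.1, 37.8 and 27.1 (log2 -0.69, SE 0.18, adjusted p = 0.0448). It was at 23.1 ± 7.25 CPM (SD, n = 4) in Sham, so that AVF+NX was nearer to Sham than NX was.

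Kl, which encodes klotho, the co-receptor of the phosphate-regulating hormone FGF23, was at 592, 680, 754 and 705 CPM against 963, 1178, 1048 and 749 (log2 -0.53, SE 0.14, adjusted p = 0.0413). AVF+NX library 3 lay just above NX library 4. The sodium-calcium exchanger Slc8a1, of the basolateral side, fell by 0.58 on the log2 scale (adjusted p = 0.0238), and the calcium buffer Calb1 was at -0.67 (SE 0.19, adjusted p = 0.0605). The calls of Trpv5, Kl and Slc8a1 were lost in 8, 10 and 5 of the 12 fits without 1 library, AVF+NX libraries 1 and 4 among them, with an adjusted p of up to 0.127, 0.122 and 0.0774. The count of the distal list was 0 without AVF+NX library 1 or 4, 2 without AVF+NX library 2, 1 without NX library 1, 2 or 3 and 2 without Sham library 2 or 4. Its median was -0.21 without AVF+NX libraries 1 and 4 together.

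In the thick ascending limb, 3 of 18 genes were called lower, and 16 were negative, with a median of -0.34. Casr, the calcium-sensing receptor, was at 80.0, 84.8, 98.2 and 93.5 CPM against 149, 142, 118 and 112 (log2 -0.54, SE 0.11, adjusted p = 0.0125), and kept its call in all 12 fits without 1 library. Bsnd, which encodes the chloride channel subunit barttin, fell by 0.47 on the log2 scale (SE 0.12, adjusted p = 0.0424). That call was lost in 9 of the 12 fits without 1 library, with an adjusted p of up to 0.127. The most abundant gene of this segment, Umod (uromodulin), was at 1820, 2128, 2324 and 2992 CPM against 2910, 3006, 2905 and 3877 and did not pass (log2 -0.46, SE 0.16, adjusted p = 0.113). The sodium potassium chloride cotransporter Slc12a1 was at -0.28 (SE 0.24, adjusted p = 0.519). The count of the list was 1 without AVF+NX library 1, 2 or 4, NX library 1 or Sham library 2, and 6 without AVF+NX library 3.

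In principal cells of the collecting duct, 3 of 18 genes were called lower, with a median of -0.33. Npnt, the basement membrane protein nephronectin, was at 87.7, 98.3, 96.0 and 80.1 CPM against 120, 136, 131 and 140 (log2 -0.54, SE 0.09, adjusted p = 0.00669). It kept its call in all 12 fits without 1 library. Scnn1g, the gamma subunit of the epithelial sodium channel, was at 38.0, 51.7, 48.8 and 46.9 CPM against 78.9, 75.7, 75.2 and 52.5 (log2 -0.60, SE 0.13, adjusted p = 0.0190), with a lost call without AVF+NX library 1 or NX library 3 (adjusted p of up to 0.0572). Hsd11b2, which protects the mineralocorticoid receptor from glucocorticoids, fell by 0.46 (adjusted p = 0.0483), with a call lost in 10 of 12 fits (adjusted p of up to 0.141). The water channel Aqp2 was at 261, 330, 436 and 547 CPM against 622, 458, 417 and 486 (log2 -0.33, SE 0.27, adjusted p = 0.486). The count was 1 without AVF+NX library 1 or NX library 3 and 5 without AVF+NX library 3.

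Among intercalated cell genes, which secrete acid or base, all 19 were negative, 13 had an unadjusted p below 0.05 (9.25% of all genes were lower at that level) and 3 were called, with a median of -0.47. Rhbg, a basolateral ammonia transporter, was at 32.3, 41.2, 45.1 and 38.4 CPM against 55.6, 58.2, 56.5 and 57.5 (log2 -0.54, SE 0.10, adjusted p = 0.0108). It did not overlap and kept its call in all 12 fits without 1 library. Its apical counterpart Rhcg fell by 0.48 and the proton pump subunit Atp6v1c2 by 0.45 (adjusted p = 0.0390 and 0.0347), calls lost in 9 and 8 of the 12 fits (adjusted p of up to 0.110 and 0.107). The count was 1 without AVF+NX library 1, 2 or 4, NX library 1, 2 or 3 or Sham library 2, 11 without AVF+NX library 3 and 6 without NX library 4. The median was -0.24 without AVF+NX libraries 1 and 4 together.

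In the proximal tubule, all 21 genes of the early segments were negative, with a median of -0.38, but none was called. An unadjusted p below 0.05 was found for 6 (9.25% of all genes were lower at that level). DESeq2 also called none. The phosphate transporter Slc34a1 was at 1713, 2136, 2529 and 1390 CPM against 2093, 3174, 3702 and 1965 (log2 -0.49, SE 0.24, adjusted p = 0.232), with overlap between the groups. The endocytic receptor Lrp2 (megalin) was at -0.35 (SE 0.16, adjusted p = 0.207). Against Sham, 14 of the 21 were lower after AVF+NX (9.18% of all genes) and none after NX (0.447%). Both of those comparisons use the same Sham libraries. The median of the 21 genes was -0.17 without AVF+NX libraries 1 and 4. Of 11 genes of the late proximal tubule, 7 were negative and 4 positive, with a median of -0.09. Of 13 genes of the loop and inner medulla, 10 were positive, with a median of 0.24. None of either list had an unadjusted p below 0.05.

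**Figure D5:**
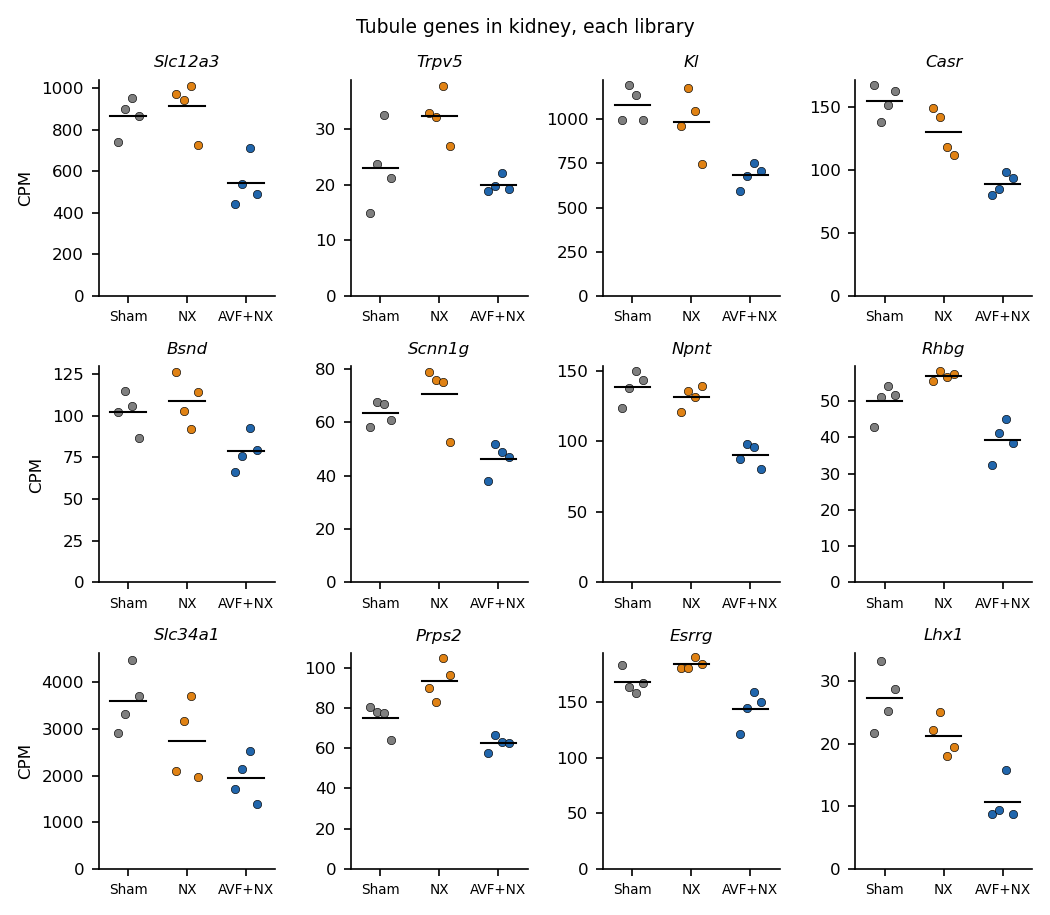
CPM of tubule genes in each kidney library (linear axis from 0; points are libraries, bars are group means). AVF+NX points lie below NX points for Slc12a3, Trpv5, Casr, Scnn1g, Npnt, Rhbg, Prps2, Esrrg and Lhx1, with overlap for Kl, Bsnd and Slc34a1.

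Esrrg, a nuclear receptor that drives mitochondrial genes in kidney, was at 121, 145, 159 and 150 CPM against 181, 182, 191 and 185 (log2 -0.36, SE 0.09, adjusted p = 0.0298). Its call was lost without AVF+NX library 1, 2 or 4 or NX library 2 or 3 (adjusted p of up to 0.0797). All 33 nuclear genes of oxidative phosphorylation were negative, with a median of -0.19, none called and 11 at an unadjusted p below 0.05 (9.25% of all genes were lower at that level). DESeq2 called 3. Without AVF+NX library 3 edgeR also called 3, and the median was -0.08 without AVF+NX libraries 1 and 4.

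Lhx1, a developmental transcription factor, was at 8.71, 9.41, 15.8 and 8.76 CPM against 22.3, 25.1, 18.1 and 19.6 (log2 -0.99, SE 0.20, adjusted p = 0.0144). Its call was lost without AVF+NX library 1 (adjusted p = 0.0507). Prps2, which makes the sugar phosphate for nucleotide synthesis, had the smallest p among the genes that fell, at 57.4, 66.3, 63.2 and 62.8 CPM against 89.7, 83.0, 105 and 96.5 (log2 -0.58, SE 0.09, adjusted p = 0.0062). Clcn6, an endosomal chloride transporter, fell by 0.45, Dmd, dystrophin, by 0.43 and the efflux pump Abcc4 by 0.58 on the log2 scale (adjusted p = 0.0083, 0.00906 and 0.0109). For these 4 genes the groups did not overlap, and the calls were kept in all 12 fits without 1 library. Mean CPM in Sham, NX and AVF+NX was 74.9, 93.5 and 62.4 for Prps2 and 118, 96.7 and 70.8 for Clcn6. It was 21.2, 27.3 and 20.3 for Dmd and 114, 151 and 101 for Abcc4. Dmd was called higher in NX than in Sham (log2 0.37, adjusted p = 0.0389).

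Set beside Sham, lists of genes that rose differed in their median after NX. For the B and plasma cell list the median log2 fold change was 2.70 for NX over Sham and 5.07 for AVF+NX over Sham. For the macrophage list it was 0.98 and 2.18, and for the T and NK cell list 0.90 and 2.40. Called higher than Sham after NX were 5 of 13, 4 of 24 and 1 of 20 members of these lists (0.859% of all genes). After AVF+NX 13, 24 and 18 were (15.9%). The NX medians thus rest mostly on genes that were not called. For MHC class II genes the median was -0.02 and 1.12, with none of 8 called after NX and 7 after AVF+NX. Among genes that fell, Slc12a3, Kl, Casr, Bsnd, Npnt, Scnn1g, Rhbg, Atp6v1c2, Lhx1, Clcn6 and Arhgef28 were also called below Sham after AVF+NX. Trpv5, Slc8a1, Hsd11b2, Rhcg, Esrrg, Prps2, Dmd and Abcc4 were not called against Sham after AVF+NX. Calb1, not called between AVF+NX and NX, was at a mean of 507 CPM after AVF+NX, 807 after NX and 488 in Sham. Over all genes, 187 were called between NX and Sham (1.31%) and 3594 between AVF+NX and Sham (25.1%). These comparisons share their Sham libraries with each other and their treated libraries with the main comparison, so they are not independent of it.

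The same contrast in the hearts of the study gave a different response for some of these genes. The heart effect of AVF+NX over NX minus the kidney effect was tested in 1 fit of all 23 libraries, and 170 of 15222 genes differed (1.12%), 38 with the higher effect in heart (0.25%) and 132 with the lower (0.867%). The heart AVF+NX libraries held 11889483 to 48079431 counts and the heart NX libraries 9605973 to 22679092. The part of this uneven depth in the calls was not tested. Tcf7 had a log2 fold change of 1.92 in kidney and -0.27 in heart (difference -2.19, SE 0.32, adjusted p = 0.00366). Pla2g7 was at 1.72 in kidney and -0.46 in heart, and Ncf1 at 1.73 and -0.27 (adjusted p of the difference 0.00366 and 0.0037). These immune genes, named for their small p in this test, rose in kidney and had a negative value in heart. Other immune genes went either way in heart, with Il2rb, Cd68 and RT1-Da at 0.38, 0.37 and 0.81 and Irf4 and C1qa at -0.20 and -0.58. The difference was not called for Igh-6, Jchain, Mzb1, Cd79b, Ms4a1, Pou2af1 and Cr2 (adjusted p from 0.0866 to 0.310). In that order it was -3.65, -2.27, -2.27, -2.10, -4.01, -1.85 and -2.45, with SE from 0.72 to 1.83. Their heart values were 0.08, 0.35, 0.35, 0.37, -0.22, 0.86 and 0.06. The missing calls therefore do not show a like response in heart. The difference was not called for RT1-Da or RT1-Ba either (adjusted p = 0.429 and 0.380). In the other direction Arhgef28, a guanine nucleotide exchange factor, was at -0.36 in kidney and at 0.69 in heart (difference 1.05, SE 0.15, adjusted p = 0.00366). Adamtsl2, a fibrillin-binding matrix protein, was at -0.17 in kidney and at 1.42 in heart (difference 1.59, adjusted p = 0.00703). Leaving out kidney AVF+NX library 1 or 4 gave 50 or 99 genes, and leaving out kidney NX library 3 or 4 gave 72 or 315. It was 703, 536, 59 and 95 without heart NX libraries 2, 3, 4 and 1, and 62 to 76 without heart AVF+NX library 1, 2 or 3.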

How the data were processed

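Per the file headers, the deposited files give read counts per gene as whole numbers, in the layout that featureCounts writes. The submitters' processing notes list Trimmomatic 0.36, STAR 2.5.2b, featureCounts and Subread 1.5.2. Genome build, annotation and the counter's strand option: not given in the sources used here, so values of overlapping genes are uncertain. The authors also deposited tables with log2 fold changes, p-values and a normalised signal per library, which equals the counts divided by 1 factor per library. From them only the authors' log2 fold changes and adjusted p-values, for the gene counts credited to them, and the gene symbols (15123 of 32552 identifiers) were used. The 21 symbols that had turned into dates are not named.

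The 12 kidney libraries were fitted together in edgeR 4.0.16 (R 4.3.3) with filterByExpr, TMM scaling, robust quasi-likelihood F tests, Benjamini-Hochberg adjustment over 14322 genes and calls at 0.05. The coefficient of biological variation was 0.176. SE is the absolute log2 fold change over the root of its F value. Folds are fitted values. The organ difference used all 23 libraries. Members and lists were chosen with earlier results of these data known. Named genes come from the 15 smallest p-values among called genes per direction, up to 3 of each list, a set of fixed markers and, for the organ difference, 5 per direction, of which a part is printed. Some genes that the rule names are not reported here. Igh-6, Cd79b, Ms4a1, Zap70, Ctla4, Lag3, Cxcr3, Gpnmb, Apoe, Siglec1, Fabp5, Ptprc, RT1-Db1, Ciita, B2m, Tap1, Col3a1, Fn1, Tnn, Sfrp4, Calb1, Lhx1, Esrrg and the members named only beside a count of their list were chosen after their values were seen. The labels number replicates as biological. Within a kidney group they differed beyond sampling noise (chi-square per degree of freedom at least 8.96). Alternatives were RLE scaling, no count filter, only the AVF+NX and NX libraries, a replicate block, DESeq2 1.42.0, limma 3.58.1 with voom and quality weights, a fit that is not robust, and leaving out each library.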

Additional observations from a re-analysis of the deposited data

Results flagged for a closer look

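In 14 of 198 groups of 4 libraries examined, 1 library lay far from the other 3 by Dixon's criterion, which chance alone meets in about 1 in 20 groups. NX library 3 was low for Jchain (5.76 CPM), Cd3g (0.904), Vim (101) and Dmd (25.1). NX library 4 was high for Umod (3877) and low for Slc8a1 (236.5) and Scnn1g (52.5), and it stood apart in total counts (18782085) and mitochondrial share (4.15%). NX library 1 was high for Hk2 (26.3) and Pdia4 (124.5). AVF+NX library 1 was high for Postn (177.7). AVF+NX library 3 was high for Tcf7 (31.2) and Lhx1 (15.8).

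The effect of AVF+NX over NX differed between heart and kidney for 25 of the 97 genes reported here, by the test of the difference in the fit of 23 libraries (edgeR, adjusted p below 0.05). Over all genes tested, 170 of 15222 differed (1.12%). Many of the 97 were chosen by their kidney values and some by their p in this same test. The 25 of 97 is therefore not a share that holds for other genes. Given as the heart log2 effect minus the kidney effect, lymphocyte genes differed by -1.62 (Il2rb), -2.30 (Ptprcap), -2.19 (Tcf7), -2.35 (Ikzf3), -2.36 (Irf4), -2.06 (Gimap7), -1.20 (Il2rg) and -2.12 (Cxcr3). Macrophage, oxidase and antigen presentation genes differed by -1.69 (Cd68), -2.13 (C1qa), -1.70 (Apoe), -2.17 (Pla2g7), -2.0 (Ncf1), -1.55 (Rac2) and -1.01 (Cd74). Other genes that rose in kidney differed by -0.94 (Tgfbi), -1.10 (Ucp2), -1.11 (Hk2), -1.12 (Gja1), -0.94 (Wipf1) and -1.09 (Inf2). The opposite sign was found for Arhgef28 (1.05), Adamtsl2 (1.59), Abcc4 (0.70) and Clcn6 (0.47).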

How the results depend on the processing

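The 870 calls became 886 with RLE scaling, 680 without a count filter, 887 without robust fitting, 1133 with limma voom, 1521 with DESeq2 and 267 with only the AVF+NX and NX libraries, which estimate the spread from 8 libraries. The last keeps 264 of the 870, and 61 of the 81 called genes whose values are given. Among those that lost their call there but in no fit without 1 library were Timp1 (adjusted p = 0.0541), Vim (0.0607), Jchain (0.0592) and RT1-Db1 (0.0654). Over the fits without 1 library 324 to 1585 genes were called, and 83 without AVF+NX libraries 1 and 4 together. Genes with an unadjusted p below 0.05 numbered 3295, 2386 to 3984 without 1 library, and 1538 without AVF+NX libraries 1 and 4. List members called numbered 130, 52 to 244 without 1 library, 48 with only the AVF+NX and NX libraries, 241 with DESeq2 and 15 without AVF+NX libraries 1 and 4. The organ difference of 170 genes became 112 without a count filter, 661 with DESeq2 and 50 to 703 without 1 library. With only the AVF+NX and NX libraries, 9 B and plasma cell, 7 T and NK cell, 6 class II and 4 complement genes were called. The count there was 2 for the distal list and 1 each for the thick ascending limb, principal cell and intercalated cell lists. The median of the endothelial list ran from -0.17 to 0.0047 without 1 library. The mitochondrial share kept its sign without each library. Of the reported log2 fold changes, Krt5, Spp1 and Adamtsl2 changed sign, to -0.091, -0.25 and 0.075, without AVF+NX libraries 1 and 4. The cause was not tested.

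By the rule used, that each pair correlates above 0.1, the replicate numbers were not taken to pair the samples: deviations of same-numbered AVF+NX and NX libraries correlated at 0.247, -0.0323, 0.396 and 0.200, and 3 of 4 AVF+NX libraries correlated best with their own number, which is a hint of shared structure from the data and not from the design. With a replicate block 1647 genes (1148 higher, 499 lower) and 259 list members were called, and 353 genes for the organ difference. With 4 libraries a group and this depth, changes under 2-fold of weakly expressed genes may be missed.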

Other observations

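Podocyte genes, of the filtration barrier, were mostly level: 15 of 19 were negative with a median log2 fold change of -0.17, and 2 were called higher. Among the called was Inf2, an actin regulator, at 32.3, 27.3, 21.9 and 26.7 CPM against 18.4, 15.6, 10.5 and 16.6 (log2 0.82, SE 0.17, adjusted p = 0.0152 in edgeR). Inf2 was not called without AVF+NX library 1 (adjusted p = 0.0526). The podocyte count was 1 when library 1 or 4 of AVF+NX or library 3 of NX was left out and 4 without NX library 4. Nephrin, Nphs1, a defining podocyte gene, was at 52.3, 77.9, 71.6 and 54.6 CPM against 80.6, 88.6, 106 and 63.4 (log2 -0.40, SE 0.15, adjusted p = 0.146).

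In edgeR no gene was called among 21 endothelial genes (3 at an unadjusted p below 0.05), 21 targets of the hypoxia response (5), 16 core clock genes (2) and 7 natriuretic peptide genes (3). Their median log2 fold changes were -0.10, -0.08, 0.05 and -0.14. DESeq2 called 0, 1, 1 and 1 of them. Over all genes tested, 13.8% were higher and 9.25% lower at an unadjusted p below 0.05 in edgeR, and 6.07% were called. With lists this small, the counts are not read as a result about their members.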
